A study of Homo sapiens with 6 samples.

Results

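The enzymes described here write or remove methyl groups on lysine 36 of histone H3 (H3K36). They are the methyltransferases NSD1, NSD2, NSD3, ASH1L and SETD2 and the demethylases KDM2A, KDM2B and KDM4A, chosen by gene name, and all 8 were found among the 12180 genes listed. The same names gave 27 of the 33090 listed transcripts. RNA was sequenced from TE-1, an established cell line of human esophageal squamous cell carcinoma (ESCC), in 3 libraries of a line that overexpresses FGL1 (FGL1-OE) and 3 libraries of its control (NC). The labels give the genotypes as FGL1 overexpression and WT, whereas the study calls the control NC and describes it as a line with random nonsense sequences. By the study's methods the stable lines were made by lentiviral infection and puromycin selection, which the WT label of the control does not mention. FGL1 encodes fibrinogen-like protein 1, a secreted protein that binds the T cell receptor LAG3, and the study used these libraries to look for genes downstream of it.

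H3K36 methylation marks transcribed chromatin. NSD1, NSD2, NSD3 and ASH1L add up to a pair of methyl groups, and the dimethyl mark they leave lies over active genes and the regions between them, where it keeps the Polycomb complex PRC2 from methylating H3K27. SETD2 travels with elongating RNA polymerase II and makes nearly all of the trimethyl mark in gene bodies. KDM2A and KDM2B remove the lower methylation states and bind unmethylated CpG islands through a CXXC zinc finger, whereas KDM4A removes the trimethyl mark and also demethylates H3K9. NSD2, also called MMSET or WHSC1, is the gene activated by the t(4;14) translocation of multiple myeloma.

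Levels are given in FPKM, mapped fragments scaled to transcript length and to the size of the library, which allows comparison between genes. Differences are FGL1-OE minus NC on the log2(FPKM + 1) scale, which understates the change of low genes, with the standard error (SE) and the Benjamini-Hochberg adjusted p-value of one limma fit over 12017 genes or 30330 transcripts. Nothing in the sources used here says that the libraries of a line came from separate cultures, so p-values measure only the spread between these libraries, and 3 against 3 libraries cannot give an exact permutation p-value under 0.1. In such bulk libraries, fewer cells that use a gene and less RNA per cell cannot be told apart. FGL1 was at 0.0202, 0 and 0.106 FPKM in NC against 33.5, 39.3 and 39.9 FPKM in FGL1-OE, and rose by 5.21 on the log2 scale (SE 0.15, adjusted p = 1.29e-05). The NC libraries were less alike than the FGL1-OE libraries, with a Pearson correlation over genes of 0.885 to 0.964 against 0.981 to 0.986, and NC 1 and NC 2 were the least alike pair. Of 13 markers of squamous epithelial cells, 11 were listed and their summed level was 907 to 1357 FPKM per library. KRT8 and KRT18, keratins of simple epithelium, made up the largest part, at 218 to 465 and 294 to 505 FPKM, whereas KRT5, KRT13 and KRT17 were between 3.16 and 15.8 FPKM. KRT6A and CDH1 were higher in all FGL1-OE libraries, as 4.09% of all genes tested were, with differences of 0.50 and 0.54 (adjusted p = 1.00 for both). TP63 was at 0.299 to 0.779 FPKM, and KRT14 and SOX2 were not in the table. Of 10 markers of immune, endothelial and stromal cells, 3 were listed, CD14, COL1A1 and COL1A2, and they summed to 2.52 to 8.96 FPKM.

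The demethylases KDM2A and KDM4A were the most abundant of the 8 genes, at a mean over the 6 libraries of 23.6 ± 2.65 and 22.3 ± 1.81 FPKM (SD, n = 6). ASH1L followed at 9.87 ± 2.00 FPKM, then NSD2 at 7.58 ± 1.49, SETD2 at 6.70 ± 1.33, NSD3 at 5.39 ± 1.44, KDM2B at 4.78 ± 0.720 and NSD1 at 3.78 ± 1.22 FPKM. Compared within each library, ASH1L was above NSD2 and SETD2 above NSD3 in all 6 libraries. Over the pooled libraries, only KDM4A and ASH1L of the neighbours in this order had ranges that did not overlap, 19.5 to 24.6 against 7.44 to 12.9 FPKM. The trimethylase SETD2 therefore stood at less than the level of its opposing demethylase KDM4A in every library, and each of the NSD genes stood below KDM2A. These gene values do not separate forms with and without the catalytic domain. A transcript without the demethylase domain, KDM2A-212, held 84.7% of the summed KDM2A transcript FPKM in NC and 83.6% in FGL1-OE. The order is thus not one of transcripts for active enzymes.

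**Figure D1:**
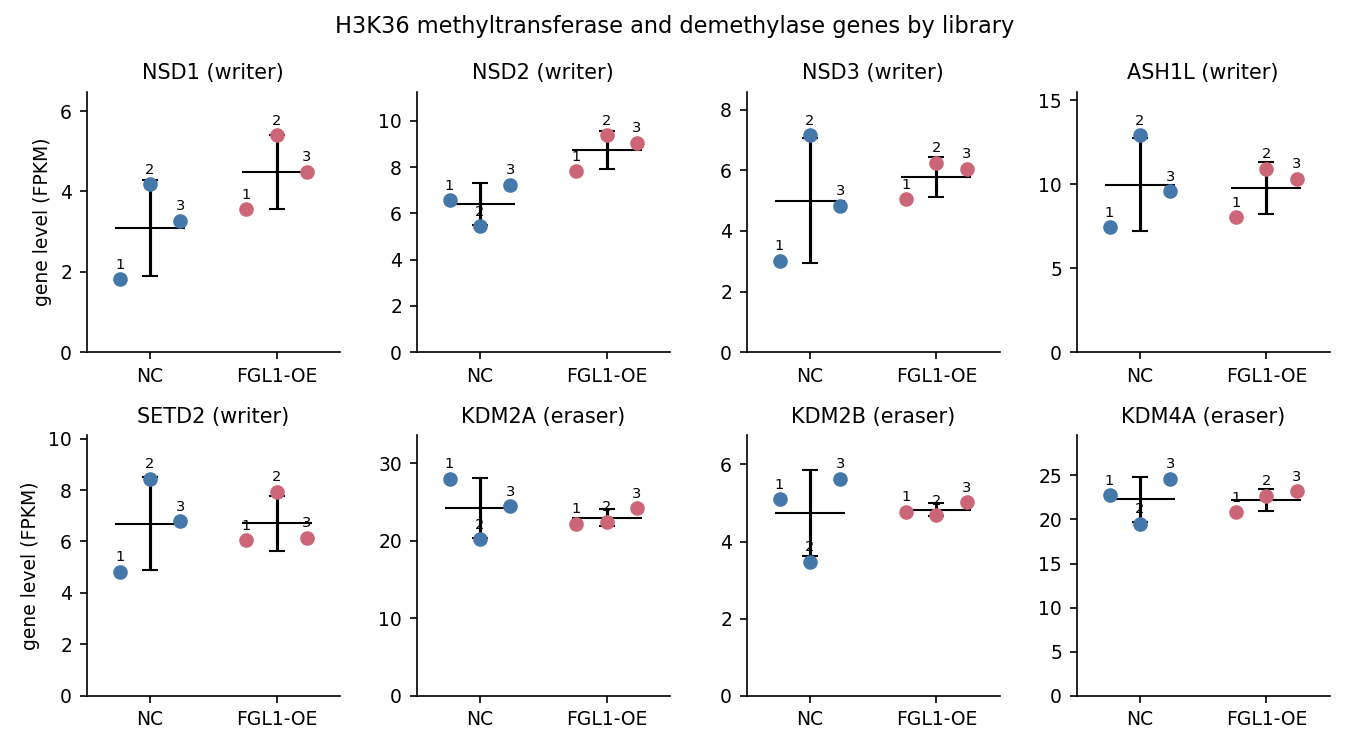
Level of each gene in FPKM (y axis, starting at 0, scale differs between panels) in the NC and FGL1-OE libraries, with the replicate number above each point and the mean ± SD of 3 libraries in black. The FGL1-OE points lie above all NC points for NSD2 alone, and NC 1 and NC 2 are the outermost NC points for NSD1, NSD3, ASH1L and SETD2.

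None of the 8 genes passed an adjusted p-value of 0.05, a threshold that 0.00832% of all genes tested passed, FGL1 alone. NSD2 (chromosome 4, 1873151 to 1983934 on GRCh37) was at 6.56, 5.44 and 7.24 FPKM in NC against 7.82, 9.37 and 9.05 FPKM in FGL1-OE. Every FGL1-OE library was higher than every NC library, and the ratio of the group means was 1.36. The difference was 0.40 on the log2 scale (SE 0.16, 95% interval 0.024 to 0.77, limma unadjusted p = 0.0397, adjusted p = 1.00, exact permutation p = 0.1). NSD2 was the only one of the 8 genes with an unadjusted p-value under 0.05, which 2.01% of all genes had, and the only one whose groups did not overlap. Groups without overlap were found for 4.09% of all genes with FGL1-OE higher and for 3.06% with FGL1-OE lower.

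The 2 other NSD genes were higher on average in FGL1-OE but overlapped. NSD1 (chromosome 5, 176560026 to 176727216), mutated in Sotos syndrome, was at 1.81, 4.18 and 3.27 FPKM in NC against 3.56, 5.40 and 4.49 FPKM in FGL1-OE, a difference of 0.46 (SE 0.25, 95% interval -0.13 to 1.04). NSD3 (chromosome 8, 38127215 to 38239790), a neighbour of FGFR1 on the amplified arm of several carcinomas, was at 3.02, 7.15 and 4.84 FPKM in NC against 5.04, 6.25 and 6.05 FPKM in FGL1-OE, a difference of 0.23 (SE 0.26). The lowest value of both genes was in NC 1. The NC values of NSD3 spanned those of all FGL1-OE libraries. ASH1L (chromosome 1, 155305059 to 155532598), the Trithorax-group member of the set, was at 7.44, 12.9 and 9.58 FPKM in NC against 8.05, 10.9 and 10.3 FPKM in FGL1-OE. Its difference was -0.0069 (SE 0.22).

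SETD2 (chromosome 3, 47057919 to 47205457) was at 4.83, 8.44 and 6.79 FPKM in NC against 6.05, 7.94 and 6.15 FPKM in FGL1-OE, with a difference of 0.024 and a 95% interval of -0.47 to 0.52. The range of its NC libraries held all FGL1-OE libraries. Among the demethylases, KDM2A (chromosome 11, 66886740 to 67025558) was at 28.0, 20.2 and 24.5 FPKM in NC against 22.2, 22.5 and 24.2 FPKM in FGL1-OE, a difference of -0.064 (SE 0.16). KDM2B (chromosome 12, 121866900 to 122018920) was at 5.10, 3.48 and 5.63 FPKM in NC against 4.78, 4.68 and 5.03 FPKM in FGL1-OE, a difference of 0.043 (SE 0.18). KDM4A (chromosome 1, 44115829 to 44171186) was at 22.7, 19.5 and 24.6 FPKM in NC against 20.8, 22.7 and 23.2 FPKM in FGL1-OE, a difference of 0.0010 (SE 0.15). For each of the 3 demethylases the FGL1-OE libraries lay within the NC range, and the intervals of the differences reached from -0.45 to 0.32 for KDM2A, from -0.38 to 0.47 for KDM2B and from -0.35 to 0.36 for KDM4A. The median difference of the 8 genes was 0.033, beside 0.016 over all genes tested.

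**Figure D2:**
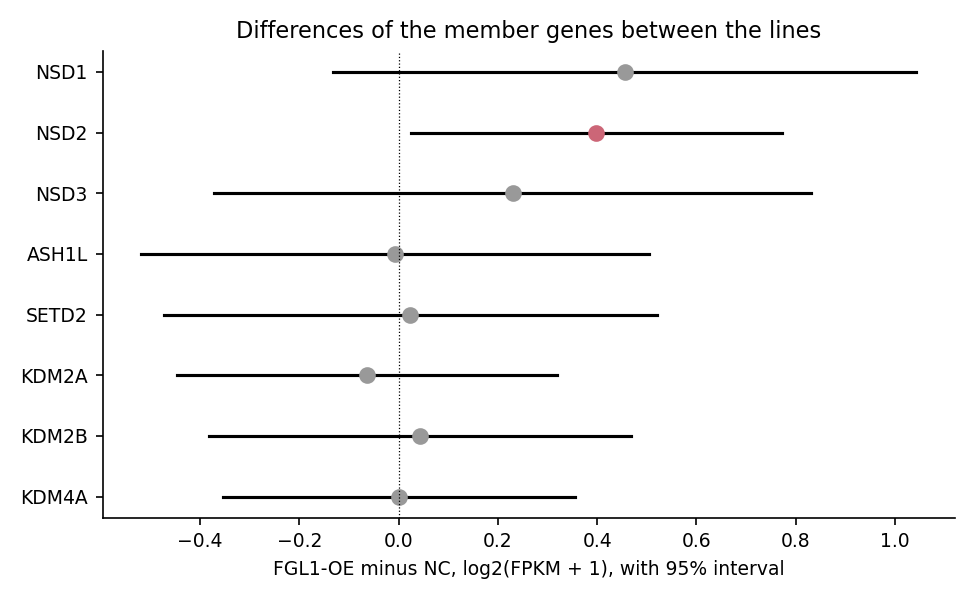
Difference of each gene between the lines (points, FGL1-OE minus NC, log2(FPKM + 1)) with its 95% interval from limma (lines). The interval of NSD2, 0.024 to 0.77, is the only one that leaves out 0, and the red point marks the gene whose groups did not overlap.

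The spread within NC followed base composition. In each library, the deviation of genes from their mean over the libraries was correlated with the GC content of the most abundant transcript, with a Spearman rho over 11775 genes of 0.723 in NC 1, -0.774 in NC 2 and 0.460 in NC 3, and of 0.278, -0.548 and -0.352 in FGL1-OE 1, 2 and 3. NSD1, NSD3, SETD2 and ASH1L, whose most abundant transcripts have a GC content of 43.2% to 47.2%, were all lowest in NC 1. NSD2, KDM2A, KDM2B and KDM4A, at 50.7% to 57.3%, were all lowest in NC 2. For NSD2 the transcript used is NSD2-204, described below, which was at 0 in every NC library. The main NSD2 transcript of NC, NSD2-219, has a GC content of 53.4%. For KDM2B it is KDM2B-202, at 0 in NC 3 and FGL1-OE 1. After the trend on GC content and length was taken out of each library, an alternative chosen after seeing the data, the difference of NSD2 was 0.39 (SE 0.11, limma unadjusted p = 0.00998, adjusted p = 0.714) and that of NSD1 was 0.42 (SE 0.17, limma unadjusted p = 0.0447, adjusted p = 0.767). NC 1 and NC 2 stood farthest apart. Without NC 2, the differences were 0.30 for NSD2, 0.65 for NSD1 and 0.48 for NSD3, with limma unadjusted p-values of 0.0640, 0.0222 and 0.0386. Without NC 1 they were 0.42, 0.21 and -0.029, with limma unadjusted p-values of 0.0445, 0.313 and 0.882, and no adjusted p-value of these genes was under 0.05 in either fit.

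The gene value of NSD2 hid a much larger contrast between its transcripts. GENCODE annotates 27 NSD2 transcripts and 7 of them were listed. NSD2-219 (ENST00000508803), NSD2-204 (ENST00000382891) and NSD2-206 (ENST00000382895) have the same coding sequence of 1365 codons, for the full-length protein with its catalytic SET domain, and differ outside it. NSD2-219 begins at the most upstream start listed, with a first exon of 119 bases, whereas NSD2-204 begins 21358 bases downstream, with a first exon of 110 bases. Each of these first exons is spliced directly to the exon that holds the start codon, whereas NSD2-206 has further noncoding exons in between. The 30 bases across that junction are shown because they tell the 3 full-length transcripts apart. Capitals mark the last 15 bases of the upstream exon and lower case the shared exon.
NSD2-219: TGCGACGCACCGCAGtgttctaagaacgga
NSD2-204: GGTAACTCTTAACTGtgttctaagaacgga
NSD2-206: CGCAACCCATCAGAGtgttctaagaacgga

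The other end differs as well. The model of NSD2-219 stops 5 bases after its stop codon and that of NSD2-203 (ENST00000382888) stops 6 bases after it, whereas NSD2-204 carries a 3′ UTR of 3297 bases. The end of the coding sequence is printed with the stop codon in capitals. For NSD2-219 and NSD2-203 the letters run to the end of the model, and for NSD2-204 they stop short of it.
NSD2-219: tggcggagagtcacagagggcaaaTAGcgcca
NSD2-203: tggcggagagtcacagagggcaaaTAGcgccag
NSD2-204: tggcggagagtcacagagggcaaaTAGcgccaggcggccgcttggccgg

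The remaining transcripts encode shorter products. NSD2-224 (ENST00000514045) has 629 codons and NSD2-207 (ENST00000398261) has 647, and both share the first 627 codons of the full-length protein and end before the SET domain. NSD2-203 has 713 codons and shares the last 653, so it keeps the SET domain and lacks the N-terminal part. NSD2-216 (ENST00000507820) is an incomplete model. The places where the short products part from the full-length sequence are shown with capitals from the first codon that differs, and the first codon of NSD2-203 is in capitals in the last line.
NSD2-204: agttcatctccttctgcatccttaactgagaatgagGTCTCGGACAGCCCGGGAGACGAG
NSD2-224: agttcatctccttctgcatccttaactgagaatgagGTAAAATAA
NSD2-207: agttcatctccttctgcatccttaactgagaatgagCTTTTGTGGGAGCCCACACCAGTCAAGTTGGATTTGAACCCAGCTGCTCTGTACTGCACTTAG
NSD2-203: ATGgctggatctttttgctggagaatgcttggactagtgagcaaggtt

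**Figure D3:**
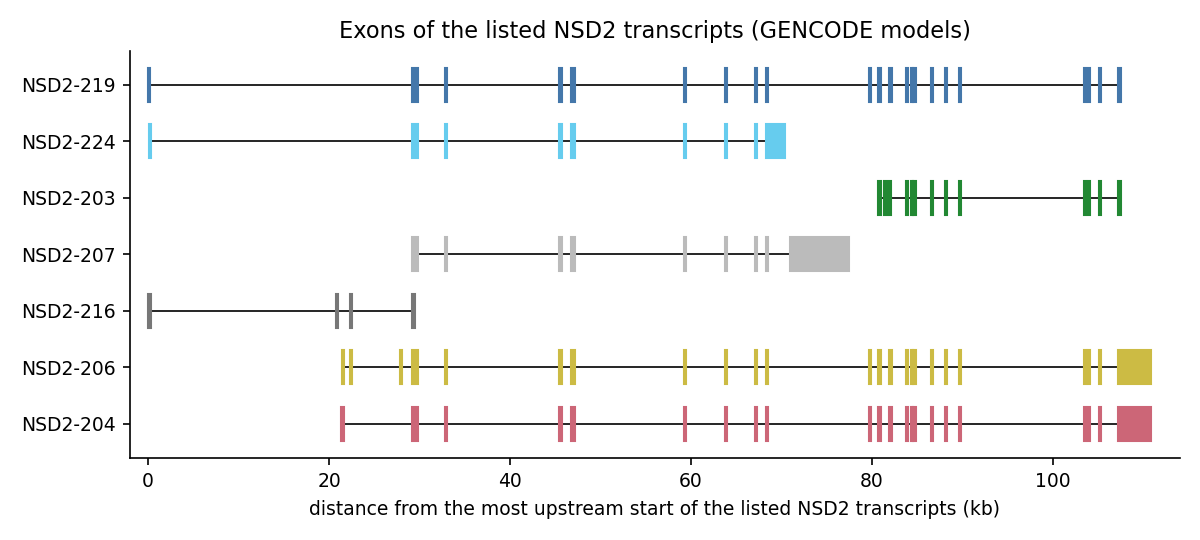
Exons (boxes) of the 7 listed NSD2 transcripts by distance in kb from the most upstream start, 5′ on the left and introns as lines, with short exons drawn at a minimum width. NSD2-219 and NSD2-224 begin at the upstream first exon and NSD2-204 and NSD2-206 21358 bases or more downstream of it, and of the 3 full-length transcripts NSD2-204 and NSD2-206 have the longer last exon.

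The transcript table listed NSD2-204 at 0 in each NC library and at 4.57, 21.5 and 21.1 FPKM in FGL1-OE. All FGL1-OE libraries were higher, and FGL1-OE 1 stood well below the other two. The difference of 3.81 (SE 0.57, adjusted p = 0.278) depends on the pseudocount because one group is at 0, so it is not a fold. Without FGL1-OE 1 it was 4.48 and the adjusted p-value was 0.0495. The study shows NSD2 among its most raised genes from these same libraries, so the level of this transcript is a description and not independent evidence of a direction.

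NSD2-219, which encodes the same protein, had the opposite pattern, at 11.7, 10.5 and 14.3 FPKM in NC and 1.37, 1.13 and 0.938 FPKM in FGL1-OE. The lowest NC library was far above the highest FGL1-OE library, and the difference was -2.61 (SE 0.24, limma unadjusted p = 2.52e-05, adjusted p = 0.0950). Of the transcripts of short products, NSD2-224 and NSD2-203 were also lower in every FGL1-OE library. NSD2-224 was at 3.07, 4.10 and 5.09 FPKM against 0.277, 0.527 and 0.773 FPKM, a difference of -1.73 (SE 0.27, adjusted p = 0.311). NSD2-203 was at 3.30, 3.55 and 4.25 FPKM against 0.986, 1.41 and 1.00 FPKM, a difference of -1.14 (SE 0.23, adjusted p = 0.703). Neither of these groups overlapped. The low transcripts varied more between libraries. NSD2-207 was at 2.17, 0.0818 and 0.738 FPKM in NC against 0.0278, 0.0382 and 0.0882 FPKM in FGL1-OE, and the groups overlapped narrowly. NSD2-206 was at 0, 0 and 0.339 FPKM in NC against 4.41, 0 and 0 FPKM in FGL1-OE, so that it was seen in the library where NSD2-204 was low. NSD2-216 was at 0.966, 0.778 and 0.467 FPKM in NC against 0.568, 0.687 and 0.429 FPKM in FGL1-OE.

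**Figure D4:**
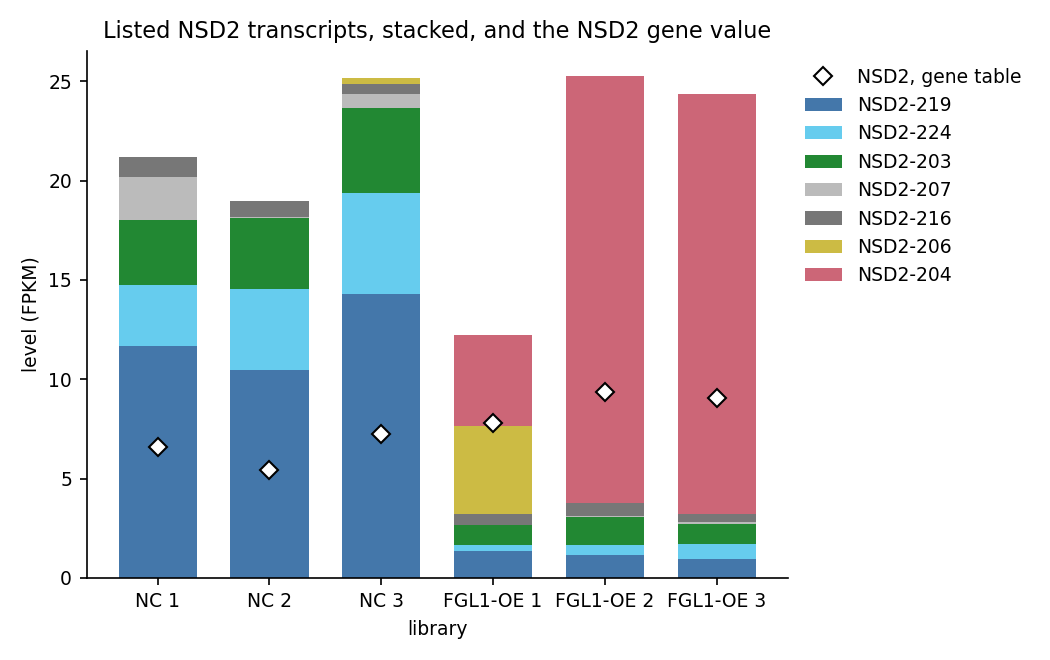
Stacked FPKM of the 7 listed NSD2 transcripts in each library (bars, y axis from 0) and the NSD2 value of the gene table (diamonds). NSD2-219 is the largest part of each NC bar and NSD2-204 of each FGL1-OE bar, while the diamonds lie between 5.44 and 9.37 FPKM in all libraries.

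Of the 26 transcripts of the 8 genes that were tested, none passed an adjusted p-value of 0.05, beside 0.0165% of all transcripts. An unadjusted limma p-value under 0.05 was found for 4, all of NSD2, and for 0 of the 19 tested transcripts of the other 7 genes, beside 3.53% of all transcripts. The 4 belong to a single gene and the others share exons with NSD2-204, so they are not separate results. NSD2-204, at 0 in NC, reached a mean of 0.5 FPKM only through FGL1-OE. The study also shows NSD2 among its most raised genes from these libraries, so the count is a description of NSD2. All FGL1-OE libraries were higher for 3 of the 26 and lower for 3, beside 4.65% and 3.57% of all transcripts. The 3 higher were NSD2-204, NSD1-202 and SETD2-202, and NSD1-202 reached a mean of 0.5 FPKM only through FGL1-OE 3, at 4.15 FPKM. The 3 lower were all of NSD2, so neither count is a result about the 8 genes as a set. One transcript, KDM2B-217, named for this reason, had a mean under 0.5 FPKM and was not tested.

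As a share of the summed FPKM of the listed NSD2 transcripts, NSD2-219 held 55.1%, 55.1% and 56.8% in NC and 11.2%, 4.48% and 3.85% in FGL1-OE. NSD2-204 held 0% in NC and 37.4%, 85.0% and 86.7% in FGL1-OE. Grouped by first exon, a grouping made after the values were seen, the transcripts of the upstream exon held 74.2%, 80.8% and 78.8% in NC and 18.2%, 9.29% and 8.79% in FGL1-OE. Those of the downstream exon held 0%, 0% and 1.34% in NC and 73.5%, 85.0% and 86.7% in FGL1-OE. Counting NSD2-206 with NSD2-204 thus brought the share of FGL1-OE 1 nearer to those of the other FGL1-OE libraries. The summed level of the downstream-exon transcripts stayed lower in FGL1-OE 1, at 8.98 FPKM against 21.5 and 21.1 FPKM. Transcripts whose model stops within 10 bases of the stop codon held 72.7% ± 1.80 in NC and 12.4% ± 6.04 in FGL1-OE (SD, n = 3 each). No share can reach an exact permutation p-value under 0.1, which each of these differences had.

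By coding product, a grouping also made after the values were seen, the contrast was smaller. Transcripts of the full-length protein held 55.1%, 55.1% and 58.1% of the summed FPKM in NC and 84.8%, 89.5% and 90.6% in FGL1-OE. Their summed level overlapped between the groups, at 11.7, 10.5 and 14.6 FPKM in NC and 10.4, 22.6 and 22.1 FPKM in FGL1-OE, since FGL1-OE 1 was below every NC library. The N-terminal products held 23.3% ± 1.37 in NC and 2.76% ± 0.687 in FGL1-OE, and the C-terminal product 17.1% ± 1.58 and 5.92% ± 2.00 (SD, n = 3 each). The sum over all 7 transcripts was 21.2, 19.0 and 25.2 FPKM in NC and 12.2, 25.3 and 24.4 FPKM in FGL1-OE. This sum was above the gene value in every library, and its difference was -0.13 (SE 0.30) where the gene value gave 0.40. The groups overlapped, and of the FGL1-OE libraries only FGL1-OE 1 lay below those of NC. The sum therefore shows no direction for NSD2 as a whole and does not repeat the higher gene value.

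NSD2-204, NSD2-206, NSD2-207, NSD2-219 and NSD2-224 have little sequence that is found in no other transcript. Of the 31-base words of NSD2-204, 0.386% are found in no other annotated transcript of the 8 genes. The value is 0.237% for NSD2-219, 0.0128% for NSD2-206 and 0% for NSD2-207 and NSD2-224, against 21.2% for NSD2-203. NSD2-204 is set apart from NSD2-219 by nearly all of its 3′ UTR of 3297 bases, which NSD2-206 shares. NSD2-204, NSD2-206 and NSD2-219 differ only upstream of the exon with the start codon and in the length of the last exon, so levels of these transcripts are uncertain where the estimate could split shared fragments differently. The 250 bases before the RefSeq start site nearest to the upstream first exon are shown because the transcripts that begin at that exon summed to 15.7, 15.3 and 19.9 FPKM in NC and to 2.22, 2.35 and 2.14 FPKM in FGL1-OE. They are RefSeq sequence, GRCh38.p14, plus strand, chr4:1871143-1871392, and capitals mark the matches to the GC box GGGCGG, the CCAAT box CCAAT and the E2F site TTTCCCGC, searched on both strands.
NSD2: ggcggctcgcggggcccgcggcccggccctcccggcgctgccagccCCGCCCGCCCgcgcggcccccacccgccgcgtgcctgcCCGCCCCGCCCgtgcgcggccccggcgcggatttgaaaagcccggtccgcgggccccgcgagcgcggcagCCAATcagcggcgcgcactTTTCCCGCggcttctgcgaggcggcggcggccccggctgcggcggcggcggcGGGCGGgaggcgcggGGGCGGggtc

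This window had a GC content of 86.0%, beside a median of 58.0% over 35116 promoter windows, and 0.239% of the windows had at least as much. It held 6 GC boxes, 1 CCAAT box and 1 E2F site, motifs that 42.6%, 32.0% and 1.39% of all windows hold at least once. It held no TATAAA and no GTAAACA, the forkhead site of the FOXO factors, which 10.7% and 2.98% of the windows hold. These are matches of letters, and no binding was measured.

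To set NSD2 beside the other genes, the distance between a pair of libraries was taken as the part of a gene's summed FPKM that would have to be given to other transcripts to make the shares of both equal. For NSD2 it was 5.54 to 10.3 percentage points between NC libraries, 3.03 to 50.3 between FGL1-OE libraries and 73.6 to 86.7 between the groups. Every distance between groups was above every distance within a group for NSD2 and for none of the 5 other genes with more than 1 listed transcript, beside 0.574% of the 8017 genes compared. In NSD1 and KDM2B, libraries of one group were as far apart as libraries of different groups, at up to 92.8 points within NC for NSD1 and up to 78.9 points within FGL1-OE for KDM2B. NSD3, ASH1L and KDM2A kept to at most 17.5 points in any pair.

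**Figure D5:**
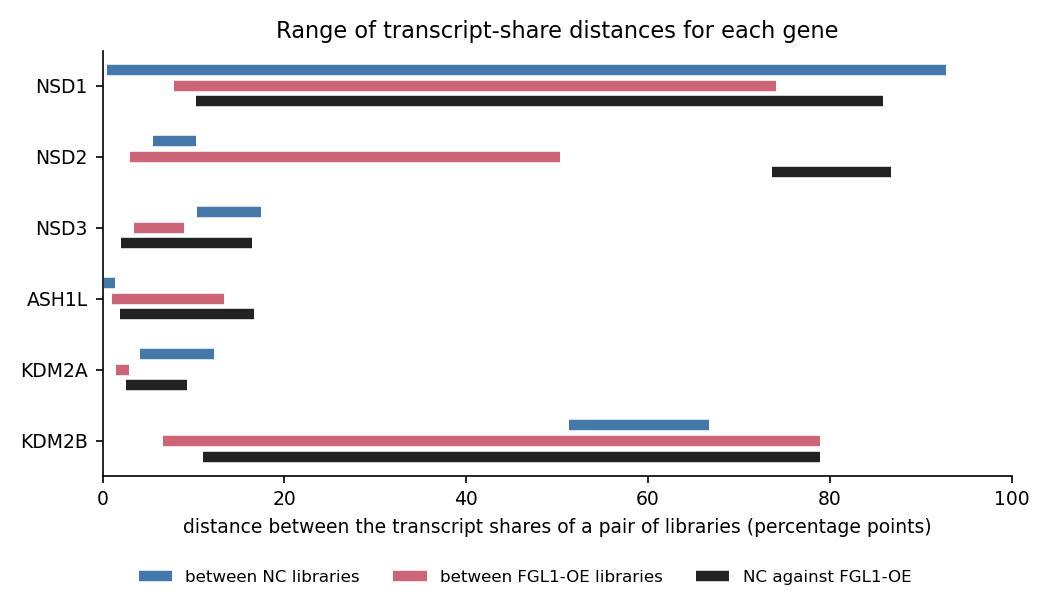
Lowest to highest distance between the transcript shares of pairs of libraries, in percentage points, for pairs within NC, within FGL1-OE and between the groups. The between-group bar of NSD2, 73.6 to 86.7, is the only one that lies clear of both within-group bars; SETD2 and KDM4A have 1 listed transcript and no bar.

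NSD1 was read as different transcripts within each line. NSD1-204, which encodes 2696 codons, was at 0.227, 4.80 and 3.74 FPKM in NC against 3.58, 5.81 and 1.01 FPKM in FGL1-OE. NSD1-201, which encodes 2427 codons and was named after its values were seen, took its place in NC 1 at 2.92 FPKM, and was at 0 in the other NC libraries and at 0.387 to 0.785 FPKM in FGL1-OE. NSD1-202 encodes a product of the same length and was at 4.15 FPKM in FGL1-OE 3 and at 0 to 0.0529 FPKM in all other libraries. Its FGL1-OE libraries were all higher, though only at 0.0321 against 0.0232 FPKM for the closest pair, with a difference of 0.82 (SE 0.65). None of the words of NSD1-201 and NSD1-202 is their own.

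NSD3 makes a long product with a SET domain and a short one without it. The short form, NSD3-201, was at 3.08, 8.03 and 5.69 FPKM in NC against 5.64, 8.30 and 7.91 FPKM in FGL1-OE, a difference of 0.39 (SE 0.36). It shares its first 618 of 645 codons with the long form and held 43.4% ± 2.85 of the summed FPKM in NC and 45.1% ± 3.97 in FGL1-OE (SD, n = 3 each). The 3 long transcripts together held 42.6% ± 4.63 and 37.0% ± 1.61. The shares overlapped between the lines for both forms. NSD3-208, an incomplete model of a pair of exons, had the largest difference of the gene, 0.49 (SE 0.45), with NC values of 0.666, 4.36 and 1.29 FPKM around FGL1-OE values of 2.80 to 2.89 FPKM.

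ASH1L was read mostly as ASH1L-202, of 2964 codons, at 7.80, 13.6 and 10.2 FPKM in NC and 8.11, 9.27 and 10.6 FPKM in FGL1-OE. ASH1L-201, of 2969 codons, was at 1.07, 1.89 and 1.24 FPKM in NC against 1.46, 3.53 and 1.74 FPKM in FGL1-OE. Its share was 12.1%, 12.2% and 10.8% in NC and 15.2%, 27.5% and 14.2% in FGL1-OE, so all FGL1-OE libraries were higher, with FGL1-OE 2 well above the others (exact permutation p = 0.1). How often single shares fail to overlap over all transcripts was not counted. By the distance between shares, the groups of ASH1L did not separate, at 1.95 points or more between groups and up to 13.4 within FGL1-OE. Its level overlapped between the groups, and its difference was 0.39 (SE 0.32). SETD2 had a single listed transcript, SETD2-202, which encodes 2564 codons. It was at 5.83, 4.96 and 6.78 FPKM in NC against 7.12, 7.11 and 7.19 FPKM in FGL1-OE. The groups did not overlap, with a difference of 0.26 (SE 0.22, adjusted p = 1.00), whereas the gene value of SETD2 did overlap and was highest in NC 2, where the transcript was lowest.

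KDM2A was dominated by KDM2A-212, which begins within the gene and encodes 723 codons that share the last 670 of the 1162 of KDM2A-210. It lacks the N-terminal JmjC domain, the demethylase part, and keeps the CXXC finger. KDM2A-212 was at 43.6, 20.5 and 33.8 FPKM in NC against 29.01, 28.0 and 33.9 FPKM in FGL1-OE, and held 84.7% ± 5.06 of the summed FPKM in NC and 83.6% ± 1.46 in FGL1-OE (SD, n = 3 each). KDM2A-210, the full-length form, was at 1.99, 4.14 and 3.13 FPKM in NC against 3.62, 3.56 and 5.28 FPKM in FGL1-OE, a difference of 0.35 (SE 0.30). KDM2A-202, which shares the first 772 codons and ends early, was at 2.73, 0.797 and 1.52 FPKM in NC against 0.976, 1.39 and 1.22 FPKM in FGL1-OE, a difference of -0.23 (SE 0.33). By the transcript values, KDM2A was thus mostly read as a transcript without the demethylase domain, in both lines. These values do not divide up the gene value, since they summed to a mean of 38.1 FPKM in NC and 36.3 FPKM in FGL1-OE. The gene value had means of 24.2 and 23.0 FPKM. The 250 bases before the RefSeq start sites nearest to the starts of KDM2A-202 and KDM2A-212 are shown to set the start region at the 5′ end of the gene beside that of the internal start. They lie at chr11:67119013-67119262 and chr11:67239764-67240013 on GRCh38.p14, plus strand, with matches to the same 5 motifs in capitals.
KDM2A-202: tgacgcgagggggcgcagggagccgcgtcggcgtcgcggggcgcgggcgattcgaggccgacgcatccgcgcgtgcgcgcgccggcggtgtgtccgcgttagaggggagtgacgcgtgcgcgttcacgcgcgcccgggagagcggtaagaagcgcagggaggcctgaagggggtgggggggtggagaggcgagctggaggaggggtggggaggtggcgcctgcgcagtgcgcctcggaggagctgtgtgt
KDM2A-212: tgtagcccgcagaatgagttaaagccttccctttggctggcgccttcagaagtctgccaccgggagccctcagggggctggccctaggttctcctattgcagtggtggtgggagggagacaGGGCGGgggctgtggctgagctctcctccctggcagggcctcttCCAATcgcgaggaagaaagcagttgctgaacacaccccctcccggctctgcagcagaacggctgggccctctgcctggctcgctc

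The window at KDM2A-202 had a GC content of 75.2% with 40 CpG dinucleotides and held none of the 5 motifs. That at KDM2A-212 had a GC content of 64.0% with 9 CpG dinucleotides, beside a median of 11 over all windows, and held 1 GC box and 1 CCAAT box.

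KDM2B recruits the Polycomb complex PRC1.1 to CpG islands. Its full-length transcript KDM2B-202, of 1336 codons, was at 0.877, 4.79 and 0 FPKM in NC against 0, 6.48 and 7.59 FPKM in FGL1-OE. KDM2B-215, also named after its values were seen, whose 704 codons are the last of KDM2B-202 and which lacks the JmjC domain, was at 5.32 FPKM in NC 3 and 3.80 FPKM in FGL1-OE 1, the libraries in which KDM2B-202 was at 0, and at 0 or below 0.001 FPKM elsewhere. None of the words of KDM2B-202 and 0.955% of those of KDM2B-215 are their own. KDM2B-201 was present in all libraries, at 4.67, 2.40 and 2.62 FPKM in NC and 2.86, 1.60 and 1.76 FPKM in FGL1-OE, a difference of -0.45 (SE 0.31). KDM4A had 1 listed transcript, KDM4A-201, at 25.9, 22.2 and 28.1 FPKM in NC against 23.8, 25.8 and 26.3 FPKM in FGL1-OE. Of its words 73.6% are its own, and its difference was -2.26e-05 (SE 0.22).

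Other genes of H3K36 methylation were taken from lists that also hold the Polycomb and elongation partners of the 8 genes. None of their 52 tested genes passed an adjusted p-value of 0.05 or had an unadjusted limma p-value under 0.05, beside 0.00832% and 2.01% of all genes. Only SMYD2 and BCOR were higher in all FGL1-OE libraries and only BCORL1 was lower in all, beside 4.09% and 3.06% of all genes. Of the other writers, SMYD2 had the largest positive difference at 0.22 (SE 0.14), with all FGL1-OE libraries higher, and SETMAR the largest negative one at -0.18. The median of the 3 was 0.13, and PRDM9, which acts in germ cells, was not in the table. Of the 5 other erasers, KDM4D was at 0.077 and KDM4B, a paralog of KDM4A, at -0.22, with a median of 0.032. Of the 17 readers, which bind methylated H3K36 through PWWP, Tudor or chromo domains or act beside proteins that do, 6 were positive and 11 negative with a median of -0.030. The mismatch repair protein MSH6 was at 0.15 and HDGFL2 at -0.33, where NC 1 and NC 2 were at 45.3 and 13.7 FPKM.

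Of the 10 genes around PRC2, whose activity H3K36 methylation limits, the histone-binding subunit RBBP7 was at 0.39 (SE 0.23) and the catalytic subunit EZH1 at -0.18, with a median of -0.027. EZH2, the main catalytic subunit of dividing cells, was at 17.7, 22.6 and 20.1 FPKM in NC against 21.2, 23.9 and 24.1 FPKM in FGL1-OE, a difference of 0.19 (SE 0.15), and was named after its values were seen. Of the 8 PRC1.1 partners of KDM2B, the corepressor BCOR was at 3.24, 4.37 and 4.50 FPKM in NC against 5.12, 5.27 and 5.25 FPKM in FGL1-OE, with all FGL1-OE libraries higher and a difference of 0.31 (SE 0.16, adjusted p = 1.00). Its paralog BCORL1 was lower in all FGL1-OE libraries, at -0.18 (SE 0.16). The median of the 8 was 0.12. Of the 9 elongation genes around SETD2, CCNT1 was at 0.12 and its kinase partner CDK9 at -0.15, with a median of -0.023. Beside the median of 0.016 over all genes, no list lay further from 0 than 0.13.

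The genes whose level over the 6 libraries was most like that of the NSD2 gene, by Pearson correlation of log2(FPKM + 1) over all genes tested, were HEATR3 (r = 0.989), CFB (r = 0.986), AC104109.3 (r = 0.980), ZNF227 (r = 0.978) and TIGD6 (r = 0.977). The correlations are a description over 6 libraries of 2 lines, and part of each is the difference between the groups. HEATR3 was at 8.89, 8.25 and 9.33 FPKM in NC against 9.28, 10.2 and 10.02 FPKM in FGL1-OE, and like NSD2 it was lowest in NC 2 and highest in FGL1-OE 2. CFB, complement factor B, was at 4.56, 4.12 and 5.09 FPKM in NC against 5.63, 6.09 and 6.03 FPKM in FGL1-OE, with the libraries in the same order from lowest to highest as for NSD2.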

How the data were processed

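RNA-seq of TE-1 cells was analysed in 3 NC and 3 FGL1-OE libraries, made from poly(A) RNA, by the study's methods, with a stranded kit, per the labels, and grouped by the genotype in the labels. The authors deposited FPKM values for genes and for transcripts, all protein coding. The submitters' processing notes name StringTie and GRCh37, and versions, aligner and annotation release are not given in the sources used here. The tables hold no counts, so the depth behind each value is unknown, and summed FPKM was 210904 to 226307 per library for genes. Columns of fold changes and p-values in the tables were not used.

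Values were analysed as log2(FPKM + 1) in R 4.3.3 with the lmFit and eBayes functions of limma 3.58.1, with 2 groups and no covariate, over features whose 6 libraries averaged 0.5 FPKM or more, with Benjamini-Hochberg adjustment over all of them. Single values were compared with exact two-sided permutation tests in SciPy 1.17.1. The 27 member transcripts were matched by ID to GENCODE 29 models on GRCh38 for exons, coding sequence and own words, while coordinates in the text are those of the tables on GRCh37 except for promoters, which come from RefSeq on GRCh38.p14, with windows for 7 of the 8 genes. The scripts were tested on simulated data.

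The members, lists and tests were chosen with earlier results of these data known. Named were every member, every listed NSD2 transcript, for each other member the most abundant transcript and those with the largest positive and negative difference, FGL1, the extremes of each list and the 5 genes most like NSD2; other genes and transcripts are said to be named after their values were seen. Alternatives were a pseudocount of 0.1, a filter at 1 FPKM or none, scaling to a common sum, quantile normalization, a replicate block, other variance estimates, summed transcripts and leaving out each library. Shares of FPKM times length and removal of GC and length trends were added after the data were seen.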

Additional observations from a re-analysis of the deposited data

How the results depend on the processing

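Depth is unknown and each line has 3 libraries, so a difference that missed the threshold is not shown to be absent. With FPKM summed over the listed transcripts, NSD2 was at -0.13 on the log2 scale and KDM4A at -2.26e-05. NSD2 and NSD1 otherwise kept a positive difference in every alternative run, as NSD2-204 did and as NSD2-219, NSD2-224 and NSD2-203 kept a negative one. NSD2-204 passed an adjusted p-value of 0.05 only without FGL1-OE 1, and its difference was 3.47 to 4.48 when one library was left out, with 0 to 1 member transcripts passing. Over the alternatives run, adjusted p-values in limma were 0.0495 to 1.00 for NSD2-204, 0.0584 to 0.823 for NSD2-219 and 0.245 to 1.00 for the NSD2 gene. Small differences reversed when one library was left out, with ranges of -0.029 to 0.48 for NSD3, -0.16 to 0.19 for SETD2, -0.18 to 0.18 for ASH1L, -0.18 to 0.042 for KDM2A, -0.13 to 0.16 for KDM2B, -0.088 to 0.073 for KDM4A, -0.40 to 0.79 for NSD1-204, -0.32 to 0.047 for ASH1L-202, -0.34 to 0.19 for KDM2A-212, -0.49 to 0.041 for KDM2A-202 and -0.091 to 0.074 for KDM4A-201. The cause was not tested. KDM4A was also at -0.0061 with scaling to a common sum, -0.010 with quantile normalization and -0.026 with GC and length trends removed, where SETD2 was at -0.025, and KDM4A-201 at 0.00017 with a pseudocount of 0.1 and 0.00098 with scaling to a common sum. Over all features, 1 gene and 5 transcripts were called. The ordinary linear model called 2 genes and 3 transcripts, a pseudocount of 0.1 called 29 transcripts, removal of GC and length trends called 2 genes, and leaving out one library called 1 to 7 genes and 1 to 28 transcripts, most of both without NC 2. Member genes with an unadjusted p-value under 0.05 numbered 1, and 0 with a pseudocount of 0.1, scaling to a common sum or a trend on mean level, 2 with GC and length trends removed, and 0 to 2 when one library was left out. Shares of FPKM times transcript length gave NSD2 differences between the lines of -55.1 points for NSD2-219, 35.5 for the full-length, -26.2 for the N-terminal and -9.08 for the C-terminal products, and -72.6 and 90.6 for the upstream and downstream first exons.

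The replicate numbers of the labels are shared by both lines, and whether they pair the libraries is unresolved. Correlations of deviations from the group means were 0.345, 0.282 and -0.061 for replicates 1, 2 and 3. FGL1-OE 1 correlated best with NC 1 and FGL1-OE 2 with NC 2, but FGL1-OE 3 also correlated best with NC 2, at 0.136. With the replicate number as a block, 1 gene and 0 transcripts were called. NSD2 had the same difference of 0.40 with a limma unadjusted p-value of 0.0551 and an adjusted p-value of 1.00, NSD1 had an unadjusted p-value of 0.0302 in place of 0.111, and NSD2-219 had an adjusted p-value of 0.823.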
